A study of Mus musculus with 54 samples.

Results

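Calca, Ramp1, Ramp3 and Nmur1 are 4 genes through which neurons and group 2 innate lymphoid cells (ILC2s), lymphocytes without antigen receptors that make type 2 cytokines, exchange peptide signals. They were selected by name, with their levels in these libraries already known, from the 10799 genes of the culture table and the 10176 genes of the genotype table. All 4 were listed in both tables. The levels and differences of these 4 genes are therefore a description, and no p-value is given for them. The data were 40 Smart-seq2 libraries, a full-length RNA-seq method that works on few cells, made from ILC2s of the mouse small intestine.

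The mice were C57BL/6, aged 8 to 12 weeks, with males and females pooled per the labels. In the culture experiment, WT ILC2s were kept for 4, 48 or 72 h. IL-2 and IL-7, which keep ILC2s alive, were given in all 6 groups, and 3 of them also received IL-25, a tuft cell cytokine that activates these cells. Groups with only IL-2 and IL-7 are called "without IL-25". In the genotype experiment, nILC2 and iILC2 came from mice labelled CTRL (genotype WT, Rxrg+/+ in the series text) or KO (Rxrg-/- in the series text), and all 4 groups carried the labels IL25 and 48h. What n and i stand for is not given in the labels. The name under which the genotype values were deposited holds cKO, while the series text gives Rxrg-/-. How the KO allele was made is not given further in the sources used here. Each of the 10 groups held 4 libraries. The labels do not say whether these came from separate animals or cultures, so SDs and p-values measure the spread between libraries, which may be technical.

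Calca encodes calcitonin and, by alternative splicing, the neuropeptide calcitonin gene-related peptide (CGRP). CGRP acts on a receptor made of Calcrl, a G protein-coupled receptor, and Ramp1, a small membrane protein that carries Calcrl to the cell surface and sets its ligand. With Ramp2 or Ramp3 in its place, the same receptor binds adrenomedullin. The CGRP receptor couples to Gs and raises cAMP, and CGRP is known to restrain ILC2 proliferation and parts of their cytokine output. Nmur1 is the receptor of neuromedin U, a peptide of enteric neurons. It couples to Gq and calcium and is known to activate ILC2s. Gene-level values do not separate the calcitonin and CGRP transcripts of Calca.

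Positions follow RefSeq on GRCm38.p6, the assembly of mm10. Calca lies on chromosome 7 (chr7:114625981-114636910, minus strand), and Ramp3 on chromosome 11 (chr11:6658506-6677478, plus strand). Ramp1 (chr1:91179822-91225196, plus strand) and Nmur1 (chr1:86386242-86389361, minus strand) both lie on chromosome 1. The bases just before each annotated gene are shown for Ramp1, Ramp3 and Nmur1, whose levels differed between culture or cell groups, with build GRCm38.p6 and RefSeq as the source. For Calca, 30 bases around its match to TGACG are shown, because this window lies within the annotated gene. Capitals mark the match to the half-site TGACG, and the other stretches hold none.
Calca (chr7:114636405-114636434, minus strand): gaagcacagaggTGACGcaatctgtctggg
Ramp1 (chr1:91179572-91179821, plus strand): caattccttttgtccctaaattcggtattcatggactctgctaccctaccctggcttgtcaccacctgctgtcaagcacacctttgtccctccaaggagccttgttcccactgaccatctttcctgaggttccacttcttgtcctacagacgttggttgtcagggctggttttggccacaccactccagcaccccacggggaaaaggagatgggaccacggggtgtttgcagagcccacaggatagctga
Ramp3 (chr11:6658283-6658505, plus strand): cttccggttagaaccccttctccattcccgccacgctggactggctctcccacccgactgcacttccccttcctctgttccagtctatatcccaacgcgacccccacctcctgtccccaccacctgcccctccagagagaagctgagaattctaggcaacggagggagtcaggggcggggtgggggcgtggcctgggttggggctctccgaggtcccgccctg
Nmur1 (chr1:86389362-86389611, minus strand): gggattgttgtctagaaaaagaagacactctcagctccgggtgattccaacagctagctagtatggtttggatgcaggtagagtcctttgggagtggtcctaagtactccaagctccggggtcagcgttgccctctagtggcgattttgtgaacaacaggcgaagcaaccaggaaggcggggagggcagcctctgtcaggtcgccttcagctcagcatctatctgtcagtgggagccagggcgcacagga

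The search covered both strands of the RefSeq promoter windows, which run from before each annotated start to just after it. TGACG, the half-site of the cAMP response element, occurred once in the Calca window, at position -65 from the annotated start, and once in the Ramp1 window, at position 11 after the start, while 20.8% of all 32851 windows held it. The full palindrome TGACGTCA, which contains TGACG, was in 1.79% of all windows and in no window of the 4 genes. AGGTCA, a nuclear receptor half-site, matched once in Calca and in 16.3% of all windows. TGANTCA, an AP-1 pattern, was in 7.81% of all windows and matched none of the 4 genes. GATAA, which GATA factors can bind, matched once in Calca and once in the second annotated window of Nmur1, and in 25.4% of all windows. A loose NF-kB pattern, held by 50.8% of all windows and not capitalised in the sequences, matched 4 times in Ramp3, once in Calca, 3 times over the 2 Nmur1 windows and not in Ramp1. These matches describe letters only.

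The values are TPM as deposited, which are scaled per gene length and per library, so depth is unknown and no counting error can be given. Listed genes summed to 873200 to 898025 TPM per culture library and to 849733 to 886670 TPM per genotype library. The tables were normalized separately, so levels are compared only within a table. In bulk RNA, fewer cells of a type and less RNA per cell cannot be told apart. The 9 ILC2 markers were all listed and summed to between 2502 and 6478 TPM in the culture libraries. They summed to 1748 to 2742 TPM in the nILC2 libraries and to 1050 to 1187 TPM in the iILC2 libraries. Of 8 neuronal markers, only Uchl1 and Ret were listed in culture, with a summed level of 4.97 to 18.4 TPM at 4 h, while Snap25, Stmn2, Tubb3, Prph and Elavl4 were not listed. Of 7 enteroendocrine markers, only Tph1 was listed, and Chga, Chgb and Neurod1 were not. In the genotype experiment, Rxrg was at 15.1 ± 3.29 TPM (SD, n = 4) in nILC2 CTRL and 2.18 ± 0.826 in nILC2 KO, and at 1.62 ± 0.25 in iILC2 CTRL and 0.280 ± 0.207 in iILC2 KO. Y-linked genes summed to under 5 TPM in 6 of the 16 genotype libraries (1 of 4 nILC2 CTRL, 2 of 4 nILC2 KO, 1 of 4 iILC2 CTRL and 2 of 4 iILC2 KO), against the label of pooled sexes, and in 0 of the 24 culture libraries.

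Calca and Nmur1 reached 1 TPM in all 24 culture libraries, Ramp3 in 22 and Ramp1 in 18. In the 16 genotype libraries, Nmur1 reached 1 TPM in 16, Ramp3 in 12, Calca in 10 and Ramp1 in 8. All 4 passed the filter of 1 TPM in at least 4 libraries in both tables. The 8 genotype libraries with Ramp1 at 1 TPM or more were the 8 nILC2 libraries, so there it passed through the cells in which it was high. Calca reached 1 TPM in all 8 nILC2 libraries, in 0 of 4 iILC2 CTRL and in 2 of 4 iILC2 KO libraries, so it passed through nILC2 too.

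**Figure D1:**
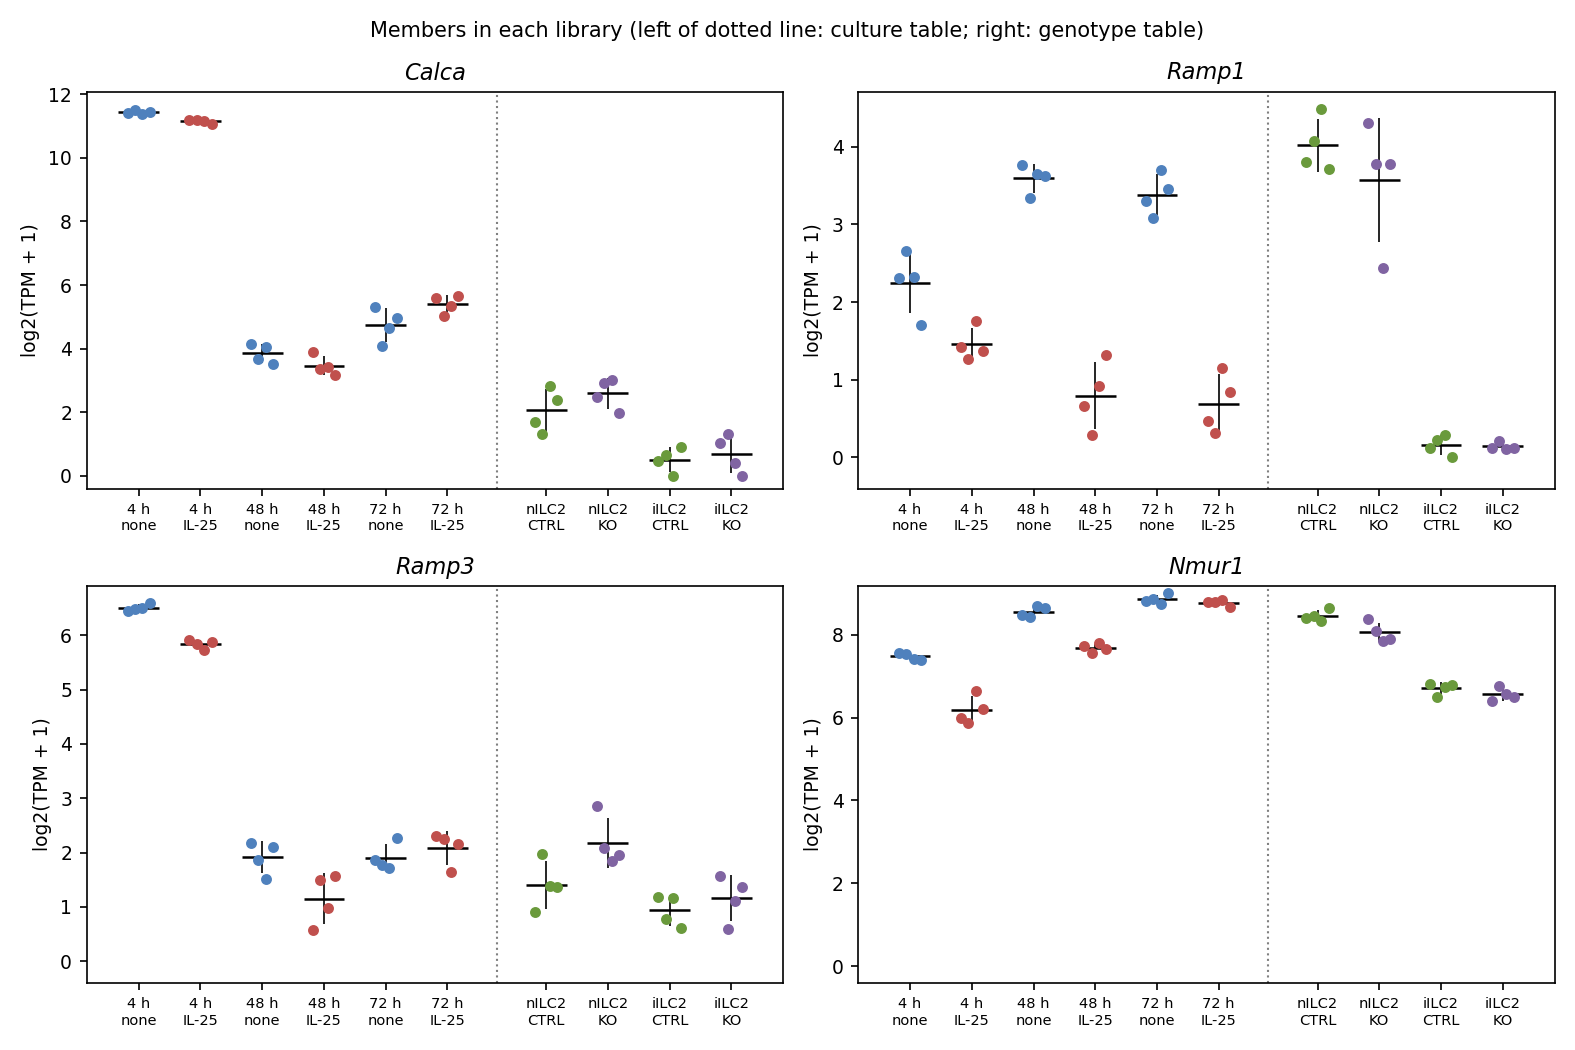
Level of Calca, Ramp1, Ramp3 and Nmur1 in each library, as log2(TPM + 1) on the vertical axis, for the 6 culture groups (blue without IL-25, red with IL-25) and the 4 genotype groups (green CTRL, purple KO). Points are libraries, and lines show the mean and SD of the log2 values. Calca and Ramp3 are high only in the 4 h groups, while Ramp1 is near 0 in all 8 iILC2 libraries.

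Calca, the ligand gene, was abundant in ILC2s at 4 h and low at every later time. Without IL-25 it was at 2752, 2891, 2688 and 2810 TPM at 4 h, where it ranked between 56th and 62nd of the listed genes. At 48 h without IL-25 it was at 16.8, 11.8, 15.6 and 10.46 TPM. The groups did not overlap, and the ratio of their means was 204-fold. On the log2(TPM + 1) scale, on which all fold changes and their standard errors (SE) are given, the difference was -7.59 ± 0.189 (SE), the lowest of the 10548 genes tested. Kit, the 1 listed of 5 mast cell markers, was also high at 4 h, at 74.9 to 112 TPM without IL-25 and 113 to 171 TPM with it, against 8.76 to 16.9 and 5.31 to 6.73 TPM at 48 h. Cpa3, Fcer1a, Mcpt1 and Mcpt2 were not listed. Epcam and Krt18, the 2 listed of 5 epithelial markers, summed to 171 to 186 TPM at 4 h and 95.9 to 113 TPM at 48 h without IL-25. Other markers were higher at 48 h than at 4 h without IL-25. The T cell markers Cd3e and Cd3g summed to 28.9 to 35.3 TPM at 4 h and 82.4 to 129 TPM at 48 h. Cd79b, a B cell marker, was at 25.2 to 30.1 and 43.5 to 49.8 TPM, and Tph1 at 226 to 341 and 363 to 498 TPM. The 3 listed ILC3 markers summed to 1.32 to 2.51 and 4.81 to 8.78 TPM. The listed neuronal, glial and endothelial markers were lower at 48 h. The part of these markers in the difference was not tested.

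With IL-25 the pattern over time was alike. Calca stood at 2353, 2344, 2311 and 2145 TPM at 4 h and at 13.8, 9.36, 9.64 and 8.00 TPM at 48 h. The log2 fold change was -7.70 ± 0.189 (SE), rank 3 from the lowest of all genes tested. All 4 libraries with IL-25 at 4 h lay below the 4 without it, by 1.22-fold in the means.

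At 72 h Calca was higher again than at 48 h, while still far below 4 h. Without IL-25 it was at 38.9, 15.9, 23.8 and 29.99 TPM, which overlapped the 48 h libraries. With IL-25 it was at 47.6, 31.5, 39.6 and 48.9 TPM, above every 48 h library with IL-25, and the ratio of means was 4.10-fold. The log2 fold change from 48 to 72 h was 0.89 ± 0.189 (SE) without IL-25 and 1.94 ± 0.189 with it. The IL-25 and control libraries overlapped at 48 and at 72 h.

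Ramp3, the accessory protein of the adrenomedullin receptor, was also highest at 4 h. At 4 h without IL-25 it was at 86.9, 88.2, 89.9 and 96.2 TPM, and with IL-25 at 59.6, 56.4, 52.4 and 57.7 TPM. At 48 h it was at 3.51, 2.63, 1.86 and 3.30 TPM without IL-25 and at 0.480, 1.83, 0.960 and 1.95 TPM with it. No 4 h library overlapped a 48 h library, and the ratios of means were 32.0-fold and 43.3-fold. The log2 fold change without IL-25 was -4.60 ± 0.197 (SE), rank 7 from the lowest of 10548 genes.

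Across the 24 culture libraries, Ramp3 ranked 3 among 7292 candidate genes in likeness to Calca (Pearson r = 0.980 on log2 values), after Rab8b (0.983) and Tes (0.982), and Calca was first in likeness to Ramp3. The libraries share their groups, so these values mainly describe the split between 4 h and later times. In the genotype table, Ramp3 was not among the 5 genes most like Calca, which were Naa25, Nop58, Nop2, Trp53 and Gcsh with r from 0.902 to 0.914 over 16 libraries.

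**Figure D2:**
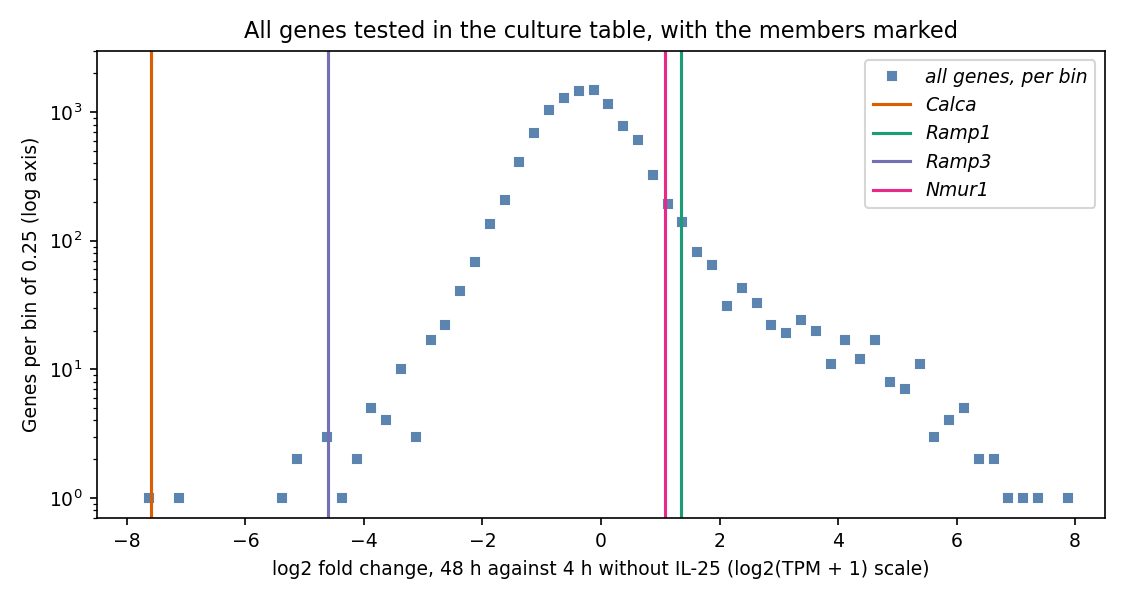
Number of genes (log axis) in bins of 0.25 of the log2 fold change from 4 to 48 h without IL-25, for all 10548 genes tested in culture (squares), with vertical lines at the 4 genes. Calca at -7.59 and Ramp3 at -4.60 lie at the low end, while Nmur1 at 1.08 and Ramp1 at 1.35 lie above 0.

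Ramp1, the CGRP-specific partner of Calcrl, had a different course, and IL-25 separated its levels most clearly at 48 and 72 h. Without IL-25 it was at 3.96, 5.33, 4.00 and 2.27 TPM at 4 h and at 12.6, 9.08, 11.6 and 11.4 TPM at 48 h, with no overlap. With IL-25 it was at 1.67, 1.41, 2.39 and 1.59 TPM at 4 h and at 0.580, 0.220, 0.890 and 1.49 TPM at 48 h. Ramp1 was thus higher at 48 h than at 4 h without IL-25, and lower in the mean with it.

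At 72 h the libraries without IL-25 held 8.85, 7.45, 12.0 and 9.95 TPM of Ramp1 and those with IL-25 held 0.380, 0.240, 1.22 and 0.800 TPM. The ratio of means between the arms was 14.0-fold at 48 h and 14.5-fold at 72 h, with no overlap at either time. The log2 fold changes with IL-25 were -0.80 at 4 h, -2.80 at 48 h and -2.69 at 72 h, each ± 0.226 (SE). At 4 h the 2 arms overlapped. Some markers of other cells were lower with IL-25 too, while others were higher. Cd79b was the 1 listed of 4 B cell markers. It was at 43.5 to 49.8 TPM without IL-25 and 71.3 to 91.5 TPM with it at 48 h. At 72 h it was at 37.6 to 47.1 and 132 to 157 TPM. The 2 listed neuronal markers summed to 4.53 to 8.73 and 19.3 to 23.6 TPM at 48 h. At 72 h they summed to 3.14 to 13.7 and 28.8 to 41.8 TPM. Pecam1 and Ramp2, the 2 listed endothelial markers, summed to 12.2 to 19.5 and 35.9 to 38.6 TPM at 48 h. Cd3e and Cd3g, the 2 listed of 6 T cell markers, summed to 82.4 to 129 TPM without IL-25 and 23.9 to 29.0 with it at 48 h, and to 96.0 to 114 and 30.8 to 42.2 TPM at 72 h. Of the ILC3 markers, Ncr1 was at 0.170 to 2.19 TPM without IL-25 and 0 to 0.390 with it at 48 h, and at 0.490 to 3.75 and 0 TPM at 72 h. Il23r was at 0 to 0.690 TPM at 48 h and 0 to 0.780 TPM at 72 h without IL-25, and at 0 in every library with IL-25 at both times. The 2 epithelial markers summed to 95.9 to 113 and 35.1 to 40.5 TPM at 48 h. The part of these markers in the levels of Ramp1 was not tested. In order, the levels of Ramp1 at 48 and 72 h without IL-25 were the highest and overlapped each other, and the 4 lower groups each overlapped the next.

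Calcrl, the receptor subunit shared by all 3 Ramp proteins, moved far less. It was between 1.66 and 4.57 TPM in the means of the 6 culture groups. It fell from 4 to 48 h without IL-25 (log2 fold change -0.55 ± 0.222, limma adjusted p = 0.033), but that call was lost after rescaling by the median of ratios (-0.29, adjusted p = 0.25), with quantile normalization (0.18) and with the 2 groups fitted alone (0.068). It was also lost in 5 of the 8 fits without 1 library (4 h replicate 2 or 3, or 48 h replicate 1, 2 or 4), with adjusted p from 0.065 to 0.15. With IL-25 it fell by 0.75 over the same time (adjusted p = 0.0040). The IL-25 differences of Calcrl were -0.33, -0.53 and -0.49 at 4, 48 and 72 h, and none passed the test (adjusted p = 0.26, 0.051 and 0.070).

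TPM is scaled by gene length, so the subunits can be compared by level. At 4 h without IL-25 there were 17.3 to 22.8 TPM of Ramp3 and 0.522 to 1.05 TPM of Ramp1 for each TPM of Calcrl. At 48 h without IL-25 the ratio to Calcrl was 0.362 to 2.09 for Ramp3 and 2.25 to 7.53 for Ramp1. With IL-25 at 48 h it was 0.230 to 2.07 for Ramp3 and 0.119 to 1.59 for Ramp1. Of Ramp1 and Ramp3, the partner with the higher level in every library was thus Ramp3 at 4 h and Ramp1 at 48 h without IL-25. With IL-25 at 48 h, Ramp2 lay above both in every library, at 4.39 to 13.1 TPM against at most 1.49 TPM of Ramp1 and 1.95 TPM of Ramp3.

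Ramp2, another partner of Calcrl and an endothelial gene, was listed only in the culture table. It was at 0 in all 4 libraries with IL-25 at 4 h and at 4.39 to 13.1 TPM (mean 8.34 ± 3.63, SD, n = 4) with IL-25 at 48 h. Ramp2 was higher with IL-25 at 48 h (log2 fold change 2.55 ± 0.369, adjusted p = 2.7e-06) and at 72 h (1.91 ± 0.369, adjusted p = 1.4e-04). The means without IL-25 were 0.59 TPM at 48 h and 0.695 TPM at 72 h, and the arms overlapped at 72 h. Outside the IL-25 groups of 48 and 72 h, it reached 1 TPM only in 48 h replicate 4 (1.46 TPM) and 72 h replicate 1 (2.01 TPM). It thus passed the filter only through the groups in which it was high. Pecam1, the other listed endothelial marker, was at 15.5 ± 3.10 TPM without IL-25 and 28.6 ± 4.36 with it at 48 h, and at 152 ± 6.27 with IL-25 at 4 h, where Ramp2 was listed at 0. Cdh5 and Kdr were not listed. Crcp, a component of the CGRP receptor complex that is also an RNA polymerase III subunit, was between 39.0 and 56.7 TPM in the group means, and rose with IL-25 at 48 h (0.54 ± 0.117, adjusted p = 4.5e-04). Calcb, Calcr, Adm, Adm2 and Iapp were not listed in either table.

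Nmur1, the neuromedin U receptor, was well expressed in every library. Without IL-25 it was at 189, 185, 171 and 166 TPM at 4 h, at 353, 346, 411 and 399 TPM at 48 h and at 447, 461, 427 and 515 TPM at 72 h. With IL-25 it was at 63.0, 57.6, 98.5 and 72.5 TPM at 4 h, at 211, 189, 221 and 202 TPM at 48 h and at 445, 442, 459 and 404 TPM at 72 h. No group overlapped an earlier time within its own arm.

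The IL-25 arm lay below its control at 4 h (2.44-fold in the means) and at 48 h (1.83-fold), without overlap. At 72 h the arms overlapped. The log2 fold changes with IL-25 were -1.30, -0.87 and -0.08 at the 3 times, each ± 0.108 (SE). The last turned to 0.15 after rescaling by the median of ratios, so no direction is given for 72 h. Over culture time Nmur1 was higher by 1.08 from 4 to 48 h without IL-25 and by 1.51 with it, opposite to Calca and Ramp3. Its most alike genes over the 24 culture libraries were Pglyrp2 (r = 0.983), Anxa2 (0.982) and Hmox2 (0.982).

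The number of the 4 genes past an adjusted p of 0.05 is given beside the share of all 10548 genes past it, and nothing is read from it, since these contrasts were known when the genes were chosen. With IL-25 at 4 h, 3 of 4 were lower (all but Calca), where 26.9% of all genes were called lower and 13.4% higher. Ramp3 did not pass with median of ratios or a pseudocount of 0.1 TPM, Ramp1 did not pass with quantile normalization, and Calca passed when the 2 groups were fitted alone. At 48 h, 3 of 4 were lower (all but Calca), against 28.7% lower and 21.4% higher. Calca passed there too with the replicate block, and without 48 h none replicate 4 or 48 h IL-25 replicate 1. At 72 h, Ramp1 was lower and Calca higher, against 33.2% lower and 15.3% higher. From 4 to 48 h without IL-25, 2 were higher and 2 lower, against 19.9% higher and 44.5% lower of all genes. With IL-25 over the same time, Nmur1 was higher and the other three lower, against 27.6% higher and 44.5% lower, and Ramp1 did not pass without 48 h IL-25 replicate 2. From 48 to 72 h without IL-25, only Calca passed, as higher, where 0.284% of genes were called higher and 0.0948% lower. This call was lost in 5 of 8 fits that left out 1 library (48 h replicate 2 or 4, or 72 h replicate 1, 3 or 4). From 48 to 72 h with IL-25, Calca, Ramp3 and Nmur1 were higher, against 13.4% higher and 17.9% lower.

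The median gene itself moved in several comparisons, by -0.119 with IL-25 at 4 h, -0.196 at 72 h, -0.276 from 4 to 48 h without IL-25 and -0.242 with it. Rescaling by the median of ratios gave Calca -7.26, Ramp3 -4.27 and Nmur1 1.41 for 48 against 4 h without IL-25. The directions of these 3 differences were the same. The shares of all genes called also became more even after it. They were 21.2% higher and 19.9% lower with IL-25 at 4 h, and 25.2% and 20.4% at 72 h. From 4 to 48 h they were 31.2% higher and 29.0% lower without IL-25, and 36.3% and 34.8% with it. From 48 to 72 h they were 0.143% and 0.304% without IL-25, and 17.8% and 15.7% with it. In nILC2 KO they were 2.03% and 0.676%. For 87 other tested genes from the signalling lists, rescaling also moved the balance of calls. With IL-25 at 4 h, 9 were higher and 28 lower, and 14 and 22 after rescaling. At 72 h, 17 were higher and 27 lower, and 24 and 22 after rescaling. From 4 to 48 h the counts were 21 and 38 without IL-25, 26 and 27 after rescaling, and 19 and 45 with IL-25, 27 and 35 after rescaling.

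**Figure D3:**
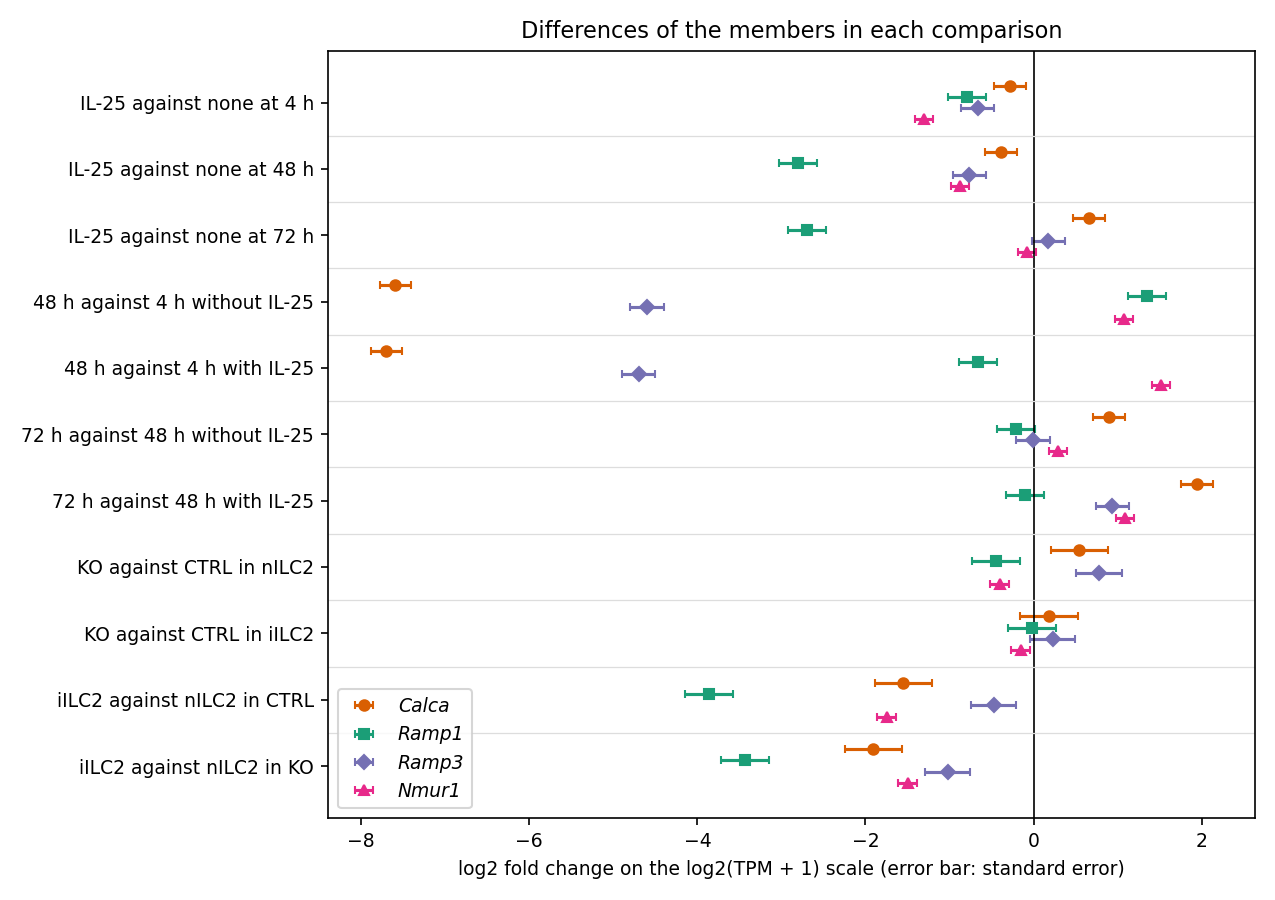
Log2 fold change (horizontal axis, log2(TPM + 1) scale) of Calca, Ramp1, Ramp3 and Nmur1 in each of 11 comparisons (vertical axis). Error bars are standard errors of the fit, n = 4 libraries per group. The values range from -7.70 for Calca from 4 to 48 h with IL-25 to 1.94 for Calca from 48 to 72 h with IL-25.

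The IL-25 difference of each gene also varied with time. For Ramp1 it was lower at 48 h than at 4 h (-2.005 ± 0.320, SE) and differed by 0.11 ± 0.320 between 72 and 48 h. For Nmur1 it was higher by 0.43 ± 0.152 at 48 h and by a further 0.79 ± 0.152 at 72 h. For Calca and Ramp3 it was about the same at 4 and 48 h (-0.11 ± 0.268 and -0.10 ± 0.278), and higher at 72 h than at 48 h by 1.05 ± 0.268 and 0.94 ± 0.278.

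In the genotype libraries, all labelled IL25, all 4 genes were lower in iILC2 than in nILC2 in the means. Ramp1 showed the widest gap. It was at 13.0, 15.9, 21.3 and 12.1 TPM in nILC2 CTRL and at 0.0900, 0.170, 0.220 and 0 TPM in iILC2 CTRL. In KO cells it was at 18.8, 12.7, 4.40 and 12.7 TPM in nILC2 and at 0.0900, 0.160, 0.0800 and 0.0900 TPM in iILC2. The log2 fold change of iILC2 against nILC2 was -3.86 in CTRL and -3.43 in KO, each ± 0.285 (SE). Those values understate the gap of a gene this low: with a pseudocount of 0.1 TPM they were -6.25 and -5.74.

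Nmur1 was at 337, 349, 322 and 401 TPM in nILC2 CTRL and at 111, 89.4, 107 and 110 TPM in iILC2 CTRL, 3.38-fold apart in the means. In KO cells it was at 331, 270, 231 and 239 TPM in nILC2 and at 83.5, 108, 93.3 and 89.9 TPM in iILC2. No iILC2 library reached an nILC2 library. The log2 fold changes were -1.75 in CTRL and -1.50 in KO, each ± 0.111 (SE). Unlike Ramp1, Nmur1 was still at 83.5 TPM or more in every iILC2 library.

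Calca was low in all 16 of these libraries. It was at 2.20, 1.51, 6.08 and 4.25 TPM in nILC2 CTRL and at 0.370, 0.590, 0 and 0.870 TPM in iILC2 CTRL. In KO it was at 4.55, 6.59, 7.16 and 2.92 TPM in nILC2 and at 1.06, 1.48, 0.330 and 0 TPM in iILC2. The nILC2 and iILC2 libraries did not overlap in either genotype, with log2 fold changes of -1.55 and -1.91, each ± 0.341 (SE). Ramp3 was at 0.860, 2.91, 1.62 and 1.59 TPM in nILC2 CTRL and at 1.26, 0.710, 1.24 and 0.530 TPM in iILC2 CTRL, which overlapped. In KO it was at 6.26, 3.21, 2.60 and 2.87 TPM in nILC2 and at 1.98, 0.500, 1.16 and 1.58 TPM in iILC2, with no overlap.

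In iILC2 against nILC2, 3 of the 4 genes were past the threshold as lower in CTRL (all but Ramp3) and 4 of 4 in KO. Calca and Ramp1 passed the filter only through nILC2, in which they were high. With a filter of 5 TPM, which left Calca and Ramp3 untested, 2 passed in each genotype (Nmur1 and Ramp1). Of all 10069 genes, 23.6% were called lower and 21.9% higher in CTRL, and 17.6% lower and 13.8% higher in KO. Of the 8 neuronal markers 4 were listed here, with a sum of 23.6 to 31.3 TPM in nILC2 CTRL and 68.4 to 73.4 in iILC2 CTRL. Uchl1 was at 9.59 ± 1.91 TPM in nILC2 CTRL and 39.7 ± 3.70 in iILC2 CTRL, Stmn2 at 3.00 ± 2.54 and 25.4 ± 4.10, and Tubb3 at 2.14 ± 1.47 and 3.95 ± 1.29. Ret moved as the 4 genes did, from 14.1 ± 3.27 to 1.96 ± 0.547 TPM. Of 6 T cell markers, Cd3g and Cd5 were listed and summed to 50.5 to 83.2 TPM in nILC2 CTRL and 6.97 to 25.2 in iILC2 CTRL. Kit, the 1 listed of 5 mast cell markers, was at 29.3 to 34.2 TPM and 6.22 to 13.8 TPM. The part of these markers in the differences was not tested. Ramp1 was most like Cd82 (r = 0.992), Ccdc184 (0.990) and Slc7a8 (0.989) over the 16 genotype libraries, and Nmur1 most like H2-K1 (0.990), Wls (0.989) and Slc7a8 (0.988).

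The Rxrg genotype gave smaller differences. In nILC2, the KO mean was higher for Calca (log2 fold change 0.54 ± 0.341, SE) and Ramp3 (0.78 ± 0.270), and lower for Ramp1 (-0.44 ± 0.285) and Nmur1 (-0.40 ± 0.111). KO and CTRL libraries overlapped for all 4 genes. For Nmur1, 3 of 4 KO libraries lay below every CTRL library and KO replicate 1, at 331 TPM, lay among them. For Ramp3, KO replicate 1 stood above the other three KO libraries, at 6.26 TPM.

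None of the 4 genes passed the threshold in nILC2 by limma, where 0.943% of all genes were called higher and 0.596% lower. At an unadjusted p under 0.05 there were 2 of these 4 genes and 1947 of 10069 genes in nILC2. Nmur1 passed without nILC2 KO replicate 1, and after quantile normalization. In iILC2, none passed either, and 0% of all genes were called higher and 0% lower. At an unadjusted p under 0.05 there were 0 of these 4 genes and 328 of 10069 genes in iILC2. The differences there were 0.18 for Calca, -0.02 for Ramp1, 0.23 for Ramp3 and -0.16 for Nmur1, with SEs of 0.341, 0.285, 0.270 and 0.111. The KO effect in iILC2 minus that in nILC2 was -0.36 ± 0.482 (SE) for Calca, 0.43 ± 0.403 for Ramp1, -0.55 ± 0.382 for Ramp3 and 0.25 ± 0.157 for Nmur1, and none of these passed the threshold.

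Other genes of peptide and transmitter signalling were tested from lists that did not include these 4 genes. Of 38 further receptors, 5 were listed and tested in culture, among them Vipr2, the receptor of vasoactive intestinal peptide, Htr1b, a serotonin receptor, Mc5r, a melanocortin receptor, and Chrnb1, an acetylcholine receptor subunit. Vipr2 fell over culture time as Calca and Ramp3 were lower, from 38.8 ± 4.90 TPM (SD, n = 4) at 4 h to 2.88 ± 0.707 at 48 h without IL-25 (log2 fold change -3.37 ± 0.199, limma adjusted p = 2.3e-13). IL-25 lowered Vipr2 at 4 h, to 11.04 ± 1.95 TPM (-1.73 ± 0.199, adjusted p = 1.4e-07), and at 48 h (-1.01, adjusted p = 1.6e-04).

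At 48 h with IL-25, all 5 of these receptors fell, against 28.7% of all genes. Mc5r was under 1 TPM in every library at 48 and 72 h, and passed the filter only through the 4 h libraries. Its means without and with IL-25 were 0.39 and 0.03 TPM at 48 h, and 0.625 and 0 TPM at 72 h. Htr1b fell by 1.70 (adjusted p = 3.5e-10), from 12.9 ± 1.36 to 3.29 ± 0.399 TPM. The calls of Chrnb1 (-0.80, adjusted p = 0.027) and Mc5r (-0.43, adjusted p = 0.042) were both lost after quantile normalization (adjusted p = 0.088 and 0.067). They were also lost in 3 and 6 of the fits without 1 library, including the one without 48 h none replicate 4 (adjusted p = 0.12 and 0.081). Mc5r rose with IL-25 at 4 h (1.001, adjusted p = 4.6e-05). At 72 h, 3 of 5 fell, Htr1b and Mc5r among them, and 1 of 5 fell at 4 h, Vipr2.

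In iILC2 against nILC2 of CTRL mice, Vipr2 fell from 68.8 ± 13.5 to 5.40 ± 1.25 TPM (-3.45 ± 0.182, adjusted p = 7.0e-11). Mc5r and Htr1b fell too (-1.32 and -1.03), and Chrnb1 did not pass. The means of Mc5r were 1.81 TPM in nILC2 CTRL and 0.095 TPM in iILC2 CTRL, and those of Htr1b were 1.36 and 0.12 TPM. Both genes reached 1 TPM only in nILC2 libraries, so they passed the filter through the cells in which they were higher. Calcrl fell from 10.97 ± 0.866 to 4.29 ± 0.949 TPM (-1.19 ± 0.183, adjusted p = 3.4e-05), and in KO by 0.98 (adjusted p = 4.7e-04). For each TPM of Calcrl there were 1.06 to 2.04 TPM of Ramp1 in nILC2 CTRL and 0 to 0.0435 in iILC2 CTRL.

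**Figure D4:**
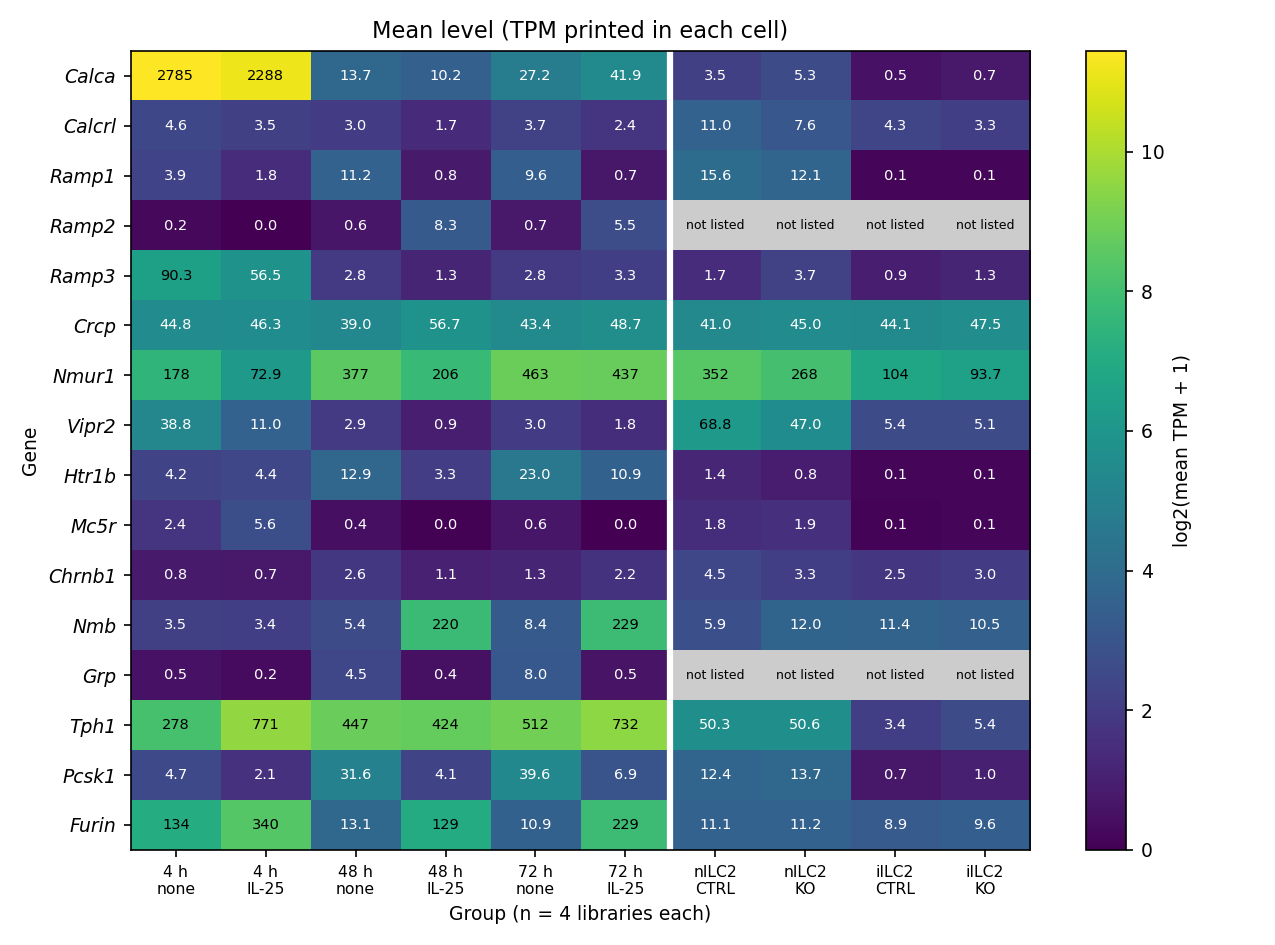
Mean TPM of 16 genes of calcitonin family and neuropeptide signalling (rows) in the 10 groups (columns, n = 4 libraries each), with the colour on a log2(mean TPM + 1) scale. The white line separates the culture table from the genotype table, which were normalized separately, and grey cells are genes not listed. Calca has the highest mean of the figure at 4 h, 2785 TPM, and Nmb is at 220 and 229 TPM only in the IL-25 groups of 48 and 72 h.

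Among peptides, transmitter synthesis and peptide processing, 11 of 30 genes were listed and tested in culture. Nmb, which encodes neuromedin B, rose with IL-25 from 5.41 ± 0.670 to 220 ± 14.2 TPM at 48 h (5.11, adjusted p = 1.8e-15) and from 8.41 ± 3.24 to 229 ± 15.4 TPM at 72 h (4.68, adjusted p = 1.0e-14). Grp, the gene of the related gastrin-releasing peptide, fell with IL-25 at 48 h (-1.96, adjusted p = 2.6e-08) and at 72 h (-2.58, adjusted p = 2.3e-10). Its means without and with IL-25 were 4.46 and 0.41 TPM at 48 h, and 8.03 and 0.51 TPM at 72 h. At 4 h they were 0.47 and 0.24 TPM. Only the 48 and 72 h groups without IL-25 had means above 1 TPM, so it passed the filter mainly through groups in which it was high. The receptors of these peptides, Nmbr and Grpr, and the Nmur1 ligand genes Nmu and Nms were not listed.

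The prohormone convertases moved in opposite directions with IL-25. Furin rose by 1.34, 3.20 and 4.28 at 4, 48 and 72 h (adjusted p = 4.6e-10, 8.6e-18 and 4.2e-20), and Pcsk1 fell (-0.89, -2.65 and -2.32, adjusted p = 3.4e-04, 6.2e-12 and 9.6e-11). Pcsk1 was at 31.6 ± 6.19 TPM at 48 h without IL-25 and 4.12 ± 0.283 with it, an order shared by Ramp1. It was also lower in iILC2 CTRL (0.675 ± 0.373 TPM) than in nILC2 CTRL (12.4 ± 4.05 TPM; -2.98, adjusted p = 4.4e-07). Tph1, the enzyme of serotonin synthesis, rose with IL-25 at 4 h from 278 ± 48.2 to 771 ± 53.8 TPM (1.48, adjusted p = 4.0e-11) and fell in iILC2 against nILC2 of CTRL mice (-3.57, adjusted p = 3.5e-08).

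For the pathway of Gs and cAMP, to which the CGRP receptor couples, 28 of 37 genes were tested in culture. With IL-25, 2 rose and 13 fell at 4 h, 3 rose and 14 fell at 48 h, and 4 rose and 8 fell at 72 h. Of all genes, 13.4%, 21.4% and 15.3% rose and 26.9%, 28.7% and 33.2% fell at these times. The medians were -0.28, -0.22 and -0.21, against -0.119, -0.0931 and -0.196 for all genes. At 48 h the phosphodiesterases Pde7a (-1.94, adjusted p = 4.2e-09) and Pde7b (-1.11, adjusted p = 1.4e-04) fell, as did the arrestins Arrb1 (-1.23) and Arrb2 (-1.15), and the receptor kinase Grk2 rose (1.07, adjusted p = 9.7e-07). In iILC2 against nILC2 of CTRL mice, 6 of 25 rose and 5 fell, where 21.9% of all genes rose and 23.6% fell, with Pde7b (-3.00, adjusted p = 5.9e-08) and Pde7a (-1.53) again lower.

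For Gq and calcium, the pathway of Nmur1, 27 of 28 genes were tested in culture. With IL-25, 1 rose and 11 fell at 4 h, 2 rose and 12 fell at 48 h, and 4 rose and 12 fell at 72 h, against the shares of all genes given for Gs (26.9%, 28.7% and 33.2% lower). The medians were -0.24, -0.37 and -0.42. Gnaq, a Gq alpha subunit, fell at 48 h (-1.55, adjusted p = 3.5e-09) and in iILC2 of CTRL mice (-1.78, adjusted p = 1.2e-06), while Gna15, another alpha subunit of that class, rose in iILC2 (2.08, adjusted p = 1.3e-10). In iILC2 against nILC2 of CTRL mice, 8 of 25 rose and 8 fell, where 21.9% of all genes rose and 23.6% fell. Rgs1, a brake on G protein signalling, fell there (-2.62, adjusted p = 4.4e-10), and with IL-25 it fell at 4 h (-1.003) and rose at 48 and 72 h (1.15 and 1.72).

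Of 16 tested CREB target genes, which cAMP can induce, 9 fell and 4 rose from 4 to 48 h without IL-25, where 44.5% of all genes fell and 19.9% rose. Nr4a1, an immediate early gene, fell by 4.14 (adjusted p = 9.8e-15), Atf3 by 2.86 and Crem by 1.88, and the log2 fold change of Nr4a3 was -2.103. In iILC2 against nILC2, 9 of 12 tested targets fell and 0 rose in CTRL (median -1.09, all genes -0.0286, with 23.6% of all genes lower), and 5 fell and 0 rose in KO (median -0.78, all genes -0.0450, with 17.6% lower). Nr4a1 fell by 4.30 in CTRL (adjusted p = 3.3e-10) and by 3.23 in KO (adjusted p = 2.9e-08).

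The Rxrg genotype called 1 of 74 listed genes higher and 1 lower in nILC2, Gna15 (0.47, with an adjusted p that rounds to 0.050) and Rgs1 (-0.68, adjusted p = 0.045). At an unadjusted p under 0.05 there were 16 of the 74 listed genes and 1947 of 10069 genes. The calls of Gna15 and Rgs1 were each lost in the same 6 of the 8 fits without 1 library (CTRL replicate 1, 3 or 4, or KO replicate 2, 3 or 4). Without nILC2 KO replicate 1, 4 genes were called higher and 6 lower. In iILC2, limma called 0 of 74 genes, with 2 at an unadjusted p under 0.05, as were 328 of 10069 genes. Calcrl (-0.50 ± 0.183, adjusted p = 0.15) and Vipr2 (-0.55 ± 0.182, adjusted p = 0.11) did not pass in nILC2.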

How the data were processed

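Smart-seq2 libraries of mouse small-intestinal ILC2s were analysed from the TPM values (a length-scaled share of transcripts) that the authors deposited per gene and library, in 1 table of 24 culture libraries and 1 of 16 genotype libraries. The submitters' processing notes name mm10, RSEM 1.3.3, STAR 2.7.5c and cutadapt 2.10. The filter on genes is not given in the sources used here. TPM keeps no read total, so depth is unknown. Libraries were grouped by their titles, 4 per group, and columns were matched to samples by name.

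Within each table, log2(TPM + 1) values were fitted in R 4.3.3 using limma 3.58.1 (lmFit, then trended eBayes). The model held group means only, without a replicate block. Genes at 1 TPM or more in at least 4 libraries were tested (10548 and 10069), Benjamini-Hochberg adjustment ran over all of them, and genes were called at an adjusted p under 0.05. A fold change on this scale understates that of low genes. The procedure was tested on simulated data.

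The 4 genes and all lists were chosen with earlier results of these data known. The genes named are these 4, the listed members of the calcitonin family, neuropeptide receptor, peptide processing, Gs, Gq and CREB target lists (at most 5 called examples each, by size), Rxrg, cell markers, and the genes most like each of the 4 by Pearson r among genes with a group mean of 10 TPM or more. Not every gene the rule covers is named, and the counts include genes not reported here. Symbols matched RefSeq (GRCm38.p6) for 10701 of 10799 and 10102 of 10176 genes, which gave positions and promoter sequences.

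Alternatives were quantile normalization, median-of-ratios rescaling, a pseudocount of 0.1 TPM, a 5 TPM filter or none, fitting only the 2 groups compared (or the 4 of an interaction), array weights, a replicate block, leaving out each library, and, added after the data were examined, a term for Y-linked expression. Same-numbered nILC2 KO and iILC2 KO libraries deviated together (r 0.102 to 0.231 after removal of group means), which comes from the data and not from the labels. Every other pair of groups had at least 1 number with r under 0.1.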

Additional observations from a re-analysis of the deposited data

Results flagged for a closer look

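In groups of 4 libraries, 5 of 114 gene and group combinations over 12 genes (the 4 genes, Calcrl, Ramp2, Crcp, 4 other receptors and Rxrg) had a highest or lowest library whose gap to its neighbour exceeded Dixon's 95% critical share of the group's range. For normally distributed values, chance alone flags about 1 group in 20, a rate that does not hold for groups with values at 0. For Ramp3, nILC2 KO replicate 1 was at 6.26 TPM and the other three at 2.60 to 3.21 TPM. The same library was the lowest for Htr1b, at 0.11 TPM against 1.04 to 1.10 TPM. For Ramp1, iILC2 KO replicate 2 was at 0.16 TPM against 0.08 to 0.09 TPM, all of them low. Ramp2 was at 0.70 TPM in 4 h replicate 4 without IL-25 and at 0 in the other three, and Mc5r at 0.13 TPM in 48 h replicate 1 with IL-25 and at 0 in the other three. A group with a single value above 0 is always flagged, whatever that value.

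The effect of IL-25 differed between times for 6 of the 8 genes other than Calca, Ramp1, Ramp3 and Nmur1 by limma's interaction term (log2 values, adjusted over all genes). From 4 to 48 h it moved by 2.74 for Ramp2 (adjusted p = 2.3e-04), 0.47 for Crcp (0.034), -1.76 for Htr1b (2.5e-07), -1.43 for Mc5r (6.3e-05) and -1.71 for Rxrg (5.8e-05). From 48 to 72 h it moved by 1.25 for Chrnb1 (0.043) and 0.68 for Htr1b (0.026). A gene was counted if it passed for either time step. Of all 10548 genes, the change in the IL-25 effect was called higher for 17.2% and lower for 10.7% from 4 to 48 h. For the step from 48 to 72 h the shares were 5.22% and 9.5%.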

How the results depend on the processing

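Of the log2 fold changes of the 4 genes, none turned under any alternative among those past the threshold, and none moved by more than the spread between libraries with array weights, no filter, a filter of 5 TPM, a fit of the compared groups alone, the replicate block, the Y-linked term or any left-out library. With a pseudocount of 0.1 TPM, iILC2 against nILC2 was -2.91 in CTRL and -3.27 in KO for Calca, -6.25 and -5.74 for Ramp1, and -1.50 in KO for Ramp3. The same pseudocount gave Ramp1 -3.87 and -3.84 with IL-25 at 48 and 72 h, -1.26 from 4 to 48 h with IL-25 and -2.81 for the change of the IL-25 effect from 4 to 48 h. For Ramp3 it gave -1.19 with IL-25 at 48 h, -4.99 and -5.50 from 4 to 48 h without and with IL-25, 1.41 from 48 to 72 h with IL-25, and -0.51 and 1.42 for the changes of the IL-25 effect. Median of ratios gave -7.26 for Calca, -4.27 for Ramp3 and 1.41 for Nmur1 from 4 to 48 h without IL-25, and for Nmur1 1.79 with IL-25 and 0.15 for IL-25 at 72 h. Quantile normalization gave Nmur1 -1.07 with IL-25 at 48 h and -2.02 in iILC2 CTRL, and Ramp1 -0.45 with IL-25 at 4 h.

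Of the 4 genes, the number past the threshold from 48 to 72 h without IL-25 was 1, and 0 with median of ratios or the compared groups alone (0 to 1 without 1 library). It was 2 for the IL-25 effect from 4 to 48 h (Ramp1 and Nmur1), and 1 with quantile normalization or the compared groups alone (1 to 2 without 1 library; Nmur1 lost without 4 h none or IL-25 replicate 1 or 2, 48 h none replicate 1 or 2, or 48 h IL-25 replicate 1 or 3). In nILC2 KO it was 0, and 1 with quantile normalization (0 to 1 without 1 library). In iILC2 KO against nILC2 KO it was 4, and 2 with a filter of 5 TPM, which left Calca and Ramp3 untested.

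Among the other listed genes, 9 were higher and 28 lower with IL-25 at 4 h, 14 and 22 with median of ratios, and 17 and 24 with quantile normalization. From 48 to 72 h without IL-25, 2 were higher, 1 with the replicate block, the 0.1 TPM pseudocount or the 5 TPM filter, 0 with the compared groups alone and 0 to 2 without 1 library, and 0 were lower, 1 with quantile normalization. In nILC2 KO, 1 was higher, 2 with the replicate block, the 5 TPM filter or either rescaling, 0 with the 0.1 TPM pseudocount, the compared groups alone or the Y-linked term, and 0 to 4 without 1 library. There 1 was lower, 0 with array weights, the 0.1 TPM pseudocount, the compared groups alone or the Y-linked term, and 0 to 6 without 1 library. For the KO effect in iILC2 minus nILC2, 0 were lower, and 1 without nILC2 KO replicate 1 (0 to 1). The replicate block changed no other of these counts past 1.5 times. Of 142 named calls, the block kept 142, and leaving out 1 library kept 1087 of 1136. The causes of these shifts were not tested, and the unknown depth limits what can be said of genes near 0 TPM.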
